A study of Mus musculus with 4 samples.

Results

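The data described here are the RNA levels of 9 marker genes of the fetal-like, injured or regenerating intestinal epithelium in mouse small intestinal (SI) organoids, with and without additional miR-181a-5p. The genes are Ly6a, Clu, Anxa1, Anxa3, Spp1, Il33, Ctgf (also named Ccn2), Cyr61 (also named Ccn1) and Msln. They were taken as a list of names, which was chosen with earlier results of these data known. Each was found by its Ensembl identifier among the 55487 genes of the count table. SI organoids are cultures of crypts, grown here from mouse intestine in IntestiCult medium, with stem cells and the mature cell types they give rise to. The mimic control libraries (replicates 1 and 2) came from organoids carrying a lentivirus for a miRNA mimic control, and the miR-181a-5p mimic libraries (replicates 3 and 4) from organoids carrying one for the miR-181a-5p mimic. Both groups were selected and kept in puromycin at 2 μg/ml, so each is a pool of transduced cells and no untransduced culture is among the samples. The labels give neither the strain, age or genotype of the mice nor the promoter of the mimic, and do not tell separate cultures or animals from repeats of 1 culture. P-values here therefore measure the spread between these libraries, which may be technical.

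In the intestine, loss of the adult stem cells or damage to the lining is followed by a transient state in which crypt cells switch on genes otherwise used by the fetal epithelium. Ly6a (Sca-1), Clu and Anxa1 are used as markers of that state. The transcriptional co-activators YAP (Yap1) and TAZ (Wwtr1) act in it with TEAD factors, and the kinases of the Hippo pathway restrain them. Ctgf and Cyr61, secreted matricellular proteins of the CCN family, are the textbook targets of YAP and TEAD. A miRNA lowers mRNAs whose 3′ UTR pairs with its seed, the bases 2 to 8 of the mature strand.

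The mature sequence of the mimicked miRNA is shown with its family, since the members share 1 seed and so the same matches in an mRNA. The sequences are those of RefSeq for GRCm38.p6, 5′ to 3′, with the seed in capitals.
mmu-miR-181a-5p: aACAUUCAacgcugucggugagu
mmu-miR-181b-5p: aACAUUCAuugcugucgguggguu
mmu-miR-181c-5p: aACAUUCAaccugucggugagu
mmu-miR-181d-5p: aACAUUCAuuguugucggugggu
The 181a strand is encoded at chr1:137966468-137966490 (Mir181a-1) and chr2:38852741-38852763 (Mir181a-2), both on the plus strand. Mature miRNAs are not measured by these mRNA libraries, so the level of the mimic itself was not checked here. The authors measured miR-181a-5p by qPCR in mouse SI organoids with the mimic or the mimic control.

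The longest 3′ UTR that GENCODE gives each marker gene (GRCm38, sense strand) was searched for matches to the seed. TGAATGT pairs with bases 2 to 8 (7mer-m8), GAATGTA pairs with bases 2 to 7 and has an A beside them (7mer-A1), and GAATGT alone is a 6mer that both of these contain. Of the 9 markers, 2 held a 7mer-m8 match. They are shown with the match in capitals and 10 bases on each side, because the differences of these genes lay on opposite sides of 0 with the mimic.
Ly6a: acatgtatccTGAATGTccccctgttg
Cyr61: gttttaagatTGAATGTttttttattt
The match of Ly6a lies at chr15:74994913-74994919 on the minus strand, at base 343 of a 3′ UTR of 385 bases, and that of Cyr61 at chr3:145647116-145647122 on the minus strand, at base 544 of 690. Ly6a held 1 further 6mer and Anxa1 held 1. Il33 had 2 matches of the 7mer-A1 kind and 1 further 6mer, and Spp1 had 1 7mer-A1. The 3′ UTRs of Clu, Anxa3, Ctgf and Msln held none of these letters. Among 12509 tested genes with a 3′ UTR of at least 50 bases, 18.3% held a 7mer-m8 match and 36.1% a 6mer or better. A match is a description of the sequence and was not tested as a binding site.

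Libraries held 31104884 to 38111731 expected counts, RSEM's estimate of the reads from each gene. Libraries of 1 group differed by far more than sampling noise (chi-square per degree of freedom 33.8 between the controls and 18.3 between the mimic libraries), so none was a copy. Between the groups that value ran from 41.8 (control 2 with mimic replicate 4) to 85.4 (control 1 with mimic replicate 3). The 10 epithelial markers, Epcam and Cdh1 among them, were all counted, with summed TPM (a length-normalized abundance) of 3520 and 3604 in the controls against 3274 and 3830 with the mimic. Markers of other tissues were low. The 10 mesenchymal markers summed to 0.53 to 0.76 TPM over the 4 libraries, with Col1a2, Col3a1, Dcn and Lum at 0 in all. The 6 endothelial markers summed to 0.11 to 0.50 TPM with Cdh5, Kdr and Emcn at 0, and the 8 immune markers to 2.54 to 3.18 TPM with Tyrobp at 0.

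Of the 9 markers, 3 rose with the miR-181a-5p mimic (Msln, Anxa1 and Clu) and 2 fell (Cyr61 and Anxa3) in the quasi-likelihood test of edgeR (adjusted p under 0.05). Without mimic replicate 3, 1 rose and 1 fell, and without mimic replicate 4, 1 fell. Without the filter on low counts the calls were Msln and Cyr61, and limma on filtered TPM called Msln alone. Ly6a and Ctgf did not pass the test, and Il33 and Spp1 had too few counts to be tested. Over all 17155 genes tested, 1.28% were called higher and 2.29% lower. With a fold change of at least 2 as a second criterion, 3 markers were higher and 1 was lower (Cyr61), beside 0.589% and 1.47% of all genes. All 7 tested markers had libraries that did not overlap between the groups, 4 higher and 3 lower with the mimic, but with 2 libraries per group that held for 28.9% of all genes in the upward and 29.5% in the downward direction. Values below are normalized CPM, counts relative to the TMM-corrected library size. A fold change in whole-organoid RNA does not tell fewer or more cells of a type from less or more RNA per cell.

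**Figure D1:**
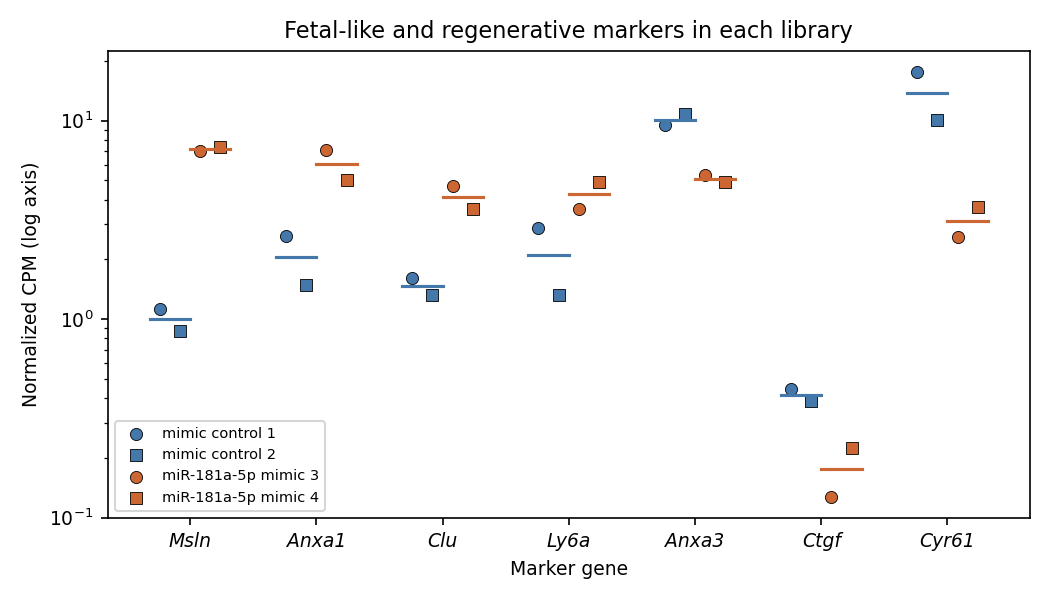
Normalized CPM (log axis) of the 7 tested markers in each library, with blue symbols for the mimic controls, orange symbols for the miR-181a-5p mimic and horizontal lines for the group means. Msln, Anxa1, Clu and Ly6a lie higher in both mimic libraries than in both controls, and Anxa3, Ctgf and Cyr61 lie lower.

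Among the markers that rose, Msln changed most. It encodes mesothelin, a surface protein anchored by a lipid that is known from mesothelium and from tumours. Its expected counts were 43 and 27 in mimic controls 1 and 2 and 220 and 261 in mimic libraries 3 and 4. Normalized, these were 1.12 and 0.871 CPM against 7.02 and 7.33 CPM, so each mimic library was far above each control. The mean rose from 0.996 ± 0.177 to 7.18 ± 0.217 CPM (SD, n = 2 each). The log2 fold change was 2.83 ± 0.24 (SE), a 7.12-fold difference, with an adjusted p of 0.00435 in edgeR. Leaving out any 1 library gave 2.68 to 3.03. The gene lies at chr17:25748613-25754378 on the minus strand (GRCm38).

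Msln is also a mesothelial gene, and 5 other mesothelial markers were therefore read beside it. Wt1 and Gpm6a were at 0 in all 4 libraries. The 5 markers summed to 3.40 and 5.17 TPM in the controls against 3.42 and 8.42 TPM with the mimic, most of it Upk3b with 2.92, 4.67, 2.89 and 7.67 TPM. The part of these markers in the values of Msln was not tested. The expected count per TPM follows the transcript length that RSEM assigned. For Msln it was 0.796 times as high with the mimic as in the controls. A change of Msln in TPM is larger for that reason than in counts. Over 10916 genes that passed a minimum of counts and TPM in every library, the middle 95% ran from 0.898 to 1.122. Msln, with 43 and 27 counts in the controls, did not pass that minimum, so the range does not tell how unusual its value is.

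Anxa1 encodes annexin A1, a calcium-dependent phospholipid-binding protein that acts through formyl peptide receptors. Its expected counts were 101 and 46 in the controls against 223 and 179 with the mimic. The normalized values of 2.63 and 1.48 CPM lay below the 7.12 and 5.03 CPM of the mimic libraries. The mean rose from 2.06 ± 0.813 to 6.07 ± 1.48 CPM, a log2 fold change of 1.53 ± 0.31 with an adjusted p of 0.0470 in edgeR. This call lies close to the threshold. Without mimic replicate 3 the log2 fold change was 1.27 and the adjusted p 0.129, without mimic replicate 4 it was 1.77, and without control 1 it was 2.02. The legacy form of the same test gave an adjusted p of 0.0512, and scaling by library totals alone gave 0.0502. A lincRNA on the opposite strand of Anxa1 (chr19:20373428-20390944, minus strand) had 1 to 3 counts.

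Clu encodes clusterin, a secreted chaperone that marks damage-induced revival stem cells of the crypt. Expected counts were 62 and 41 in the controls against 146 and 128 with the mimic, or 1.62 and 1.32 against 4.66 and 3.60 CPM. Both mimic libraries were more than both controls, and the spread within each group was small beside the gap. The mean rose from 1.47 ± 0.208 to 4.13 ± 0.754 CPM, a log2 fold change of 1.47 ± 0.27 (adjusted p 0.0340 in edgeR). Left-out libraries moved it between 1.28 and 1.65, and the call was lost without mimic replicate 3 (adjusted p 0.114). The gene lies at chr14:65968483-65981547 on the plus strand.

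Ly6a encodes Sca-1, a small surface protein anchored by a lipid and one of the most used markers of the fetal-like crypt. Expected counts were 110 and 41 in the controls against 112.15 and 175 with the mimic. In normalized CPM, control 1 (2.87) lay nearer to mimic replicate 3 (3.58) than to control 2 (1.32), and mimic replicate 4 was highest (4.92). The log2 fold change was 0.99 ± 0.36 and the adjusted p 0.150 in edgeR, so a difference was not shown. It depended on control 1. Without that library the log2 fold change was 1.68 and the adjusted p 0.0346, and without control 2 it was 0.57. The gene (chr15:74994877-74998031, minus strand) belongs to a cluster of related Ly6 genes, and its fractional count in mimic replicate 3 shows that RSEM divided some reads, so its counts are uncertain to that extent. Ctgf had a fractional count in control 2 as well.

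Among the markers that fell, Cyr61 changed most. Its expected counts were 674 and 312 in the controls against 81 and 131 with the mimic, which normalized to 17.6 and 10.1 against 2.59 and 3.68 CPM. The controls differed 1.75-fold between themselves, but the lower of them was well above both mimic libraries. The mean fell from 13.8 ± 5.31 to 3.13 ± 0.773 CPM, a log2 fold change of -2.14 ± 0.31 with an adjusted p of 0.0168 in edgeR. It stayed between -2.48 and -1.68 without any 1 library, and in each of these fits the adjusted p was at most 0.0144. The gene lies at chr3:145646976-145649981 on the minus strand, and its 3′ UTR holds a 7mer-m8 match, as that of Ly6a does.

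Ctgf, the CCN relative of Cyr61, was much scarcer. It had 17 and 11.76 expected counts in the controls against 4 and 8 with the mimic, or 0.443 and 0.387 against 0.128 and 0.225 CPM. Both mimic libraries were below both controls, on few reads. The log2 fold change was -1.21 ± 0.50 and the adjusted p 0.188 in edgeR, with -1.68 to -0.88 when a library was left out. A difference in Ctgf (chr10:24595442-24598683, plus strand) was not shown. A transcript on its opposite strand, Gm15270, had 0 to 2 counts.

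Anxa3 encodes annexin A3, a further phospholipid-binding annexin, and had the smallest SE of the tested markers. Expected counts were 363 and 334 in the controls against 166 and 174 with the mimic, or 9.47 and 10.8 against 5.30 and 4.89 CPM. The libraries of a group nearly coincided. The mean fell from 10.1 ± 0.926 to 5.09 ± 0.292 CPM, a log2 fold change of -0.99 ± 0.17 with an adjusted p of 0.0319 in edgeR. That lies just under a 2-fold change. Without mimic replicate 3 the adjusted p was 0.0746 and without mimic replicate 4 it was 0.0658, while the log2 fold change stayed between -1.09 and -0.89. Within Anxa3 (chr5:96793339-96845966, plus strand) lies Gm42603, annotated on the same strand, with 33 and 32 counts in the controls and 1 in each mimic library. Thus Anxa1 and Anxa3, of 1 gene family, moved in opposite directions.

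The other 2 markers were at or near 0. Il33 encodes an alarmin of the interleukin-1 family that is released by damaged epithelium. At chr19:29925114-29960718 (plus strand) it had 1 count in each control and 7 and 4 counts with the mimic. Pooled by group, 2 against 11 counts gave a ratio of 5.78 relative to the library totals, with an exact 95% interval of 1.26 to 53.6 that covers counting error only. Its TPM of 0.01 and 0.06 in the controls differed although both rest on 1 count, and the mimic libraries had 0.13 and 0.06. Spp1 encodes osteopontin, a secreted phosphoprotein that binds integrins, and at chr5:104435118-104441050 (plus strand) had 0 counts in all 4 libraries. A count of 0 allows up to 3 counts per library, or 0.0787 to 0.0964 CPM.

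**Figure D2:**
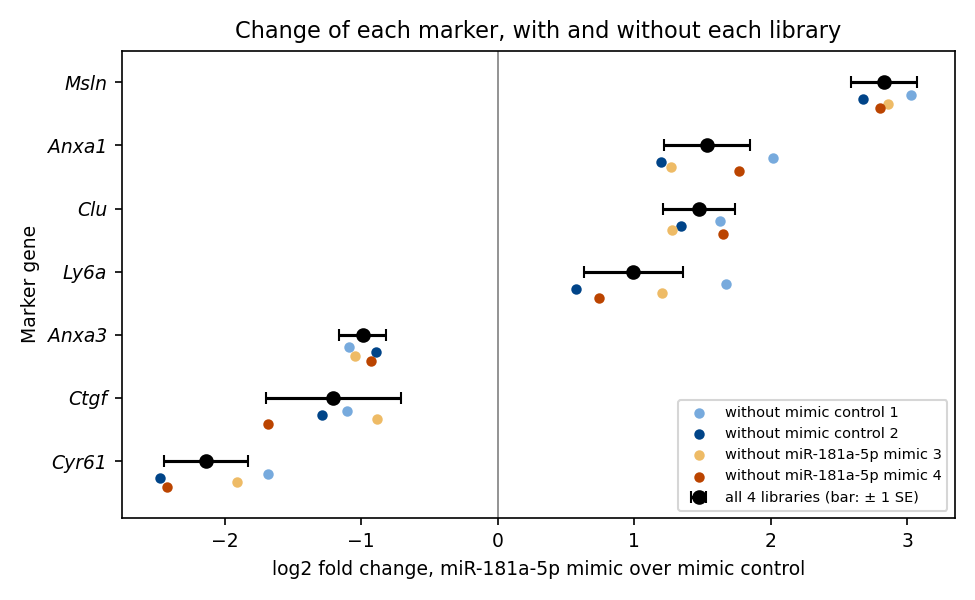
Log2 fold change of the 7 tested markers, miR-181a-5p mimic over mimic control, with black points and bars for all 4 libraries (± 1 SE) and coloured points for the fits without 1 library. Every point keeps the side of 0 of its gene, and the coloured points are widest apart for Ly6a, from 0.57 to 1.68.

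Compared per transcript length, the order of the markers changed between the groups. In the controls, Anxa3 (9.82 ± 1.43 TPM, SD, n = 2) and Cyr61 (8.52 ± 3.20 TPM) were highest, with ranges that overlapped. Ly6a (3.39 ± 1.77 TPM) and Anxa1 (1.78 ± 0.629 TPM) came next and also overlapped. Clu (1.12 ± 0.170 TPM), Msln (0.685 ± 0.120 TPM) and Ctgf (0.215 ± 0.0212 TPM) followed, each apart from its neighbours. With the mimic, Ly6a (7.20 ± 2.05 TPM), Msln (6.41 ± 0.276 TPM), Anxa3 (5.66 ± 0.962 TPM) and Anxa1 (4.97 ± 1.05 TPM) came first in the order of their means. The ranges of neighbours in this order overlapped, while both Ly6a and both Msln libraries were above both Anxa1 libraries. Clu (3.03 ± 0.290 TPM) and Cyr61 (2.04 ± 0.622 TPM) lay below them, and Ctgf (0.10 ± 0.0424 TPM) did not separate from Il33 (0.0950 ± 0.0495 TPM). All these levels are modest. Averaged over the 4 libraries, the TPM of the highest, Anxa3, was at or above that of 48.1% of the tested genes.

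**Figure D3:**
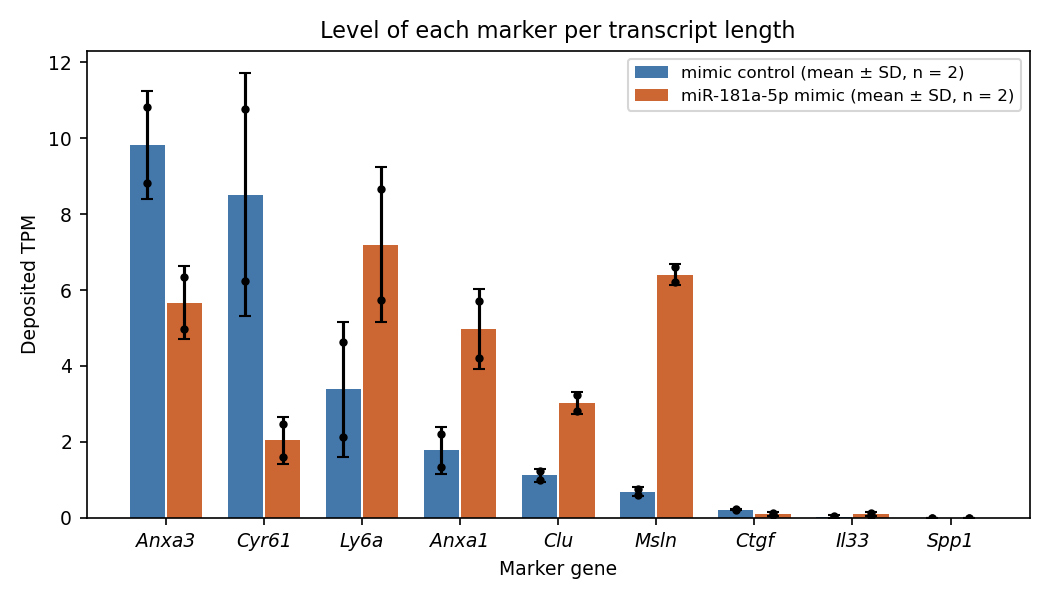
Deposited TPM of the 9 markers, with bars for the mean and lines for the SD of the 2 libraries of each group and dots for the libraries. Cyr61 and Anxa3 lead in the controls, whereas Ly6a and Msln have the highest means with the mimic and Spp1 is at 0 in both groups.

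The genes whose 4 values ran most alike were sought for Msln and Cyr61, the tested markers with the smallest p in each direction. Likeness was the Euclidean distance between centred log2 normalized CPM over the 4 libraries, and since the genes were picked by it the values are descriptions. Nearest to Msln were Col4a2 (distance 0.567), a collagen IV chain of basement membranes, Ereg (0.569), the EGF receptor ligand epiregulin, and Ccdc92 (0.570). Col4a2 had 0.287 and 0.355 CPM in the controls against 2.17 and 2.98 CPM with the mimic. Nearest to Cyr61 were Pdzk1ip1 (0.133), Egr1 (0.145), an immediate-early transcription factor, and Anpep (0.167), the brush border aminopeptidase N. Egr1 had 119 and 73.9 CPM in the controls against 16.6 and 26.1 CPM with the mimic, the same order of libraries as Cyr61.

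Other genes of the fetal-like and regenerative programme went both ways, as the markers did. Of 20 such genes, 16 were tested, 2 rose (S100a6 and Ereg) and 1 fell (Areg). Their median log2 fold change was 0.01, beside -0.01 for all genes tested, of which 3.57% were called in either direction. S100a6, a calcium-binding protein, had 6.26 and 7.20 CPM in the controls against 15.4 and 15.5 CPM with the mimic (log2 fold change 1.20 ± 0.15, adjusted p 0.0121 in edgeR). Ereg was scarce, with 5 and 3 counts in the controls against 37 and 44 counts (log2 fold change 3.35 ± 0.45, adjusted p 0.0143). Areg, the related EGF receptor ligand amphiregulin, had 67.3 and 110 CPM in the controls against 31 and 44.3 CPM with the mimic (log2 fold change -1.23 ± 0.25, adjusted p 0.0452 in edgeR). Without mimic replicate 3 the call of Areg was lost (adjusted p 0.0637). Without control 2 or without mimic replicate 4, 7 genes of the list were called in place of 3. The epidermal growth factor ligands of this list thus split by direction, as the annexins among the markers did.

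Cyr61 and Ctgf were read beside 19 further YAP and TEAD targets. Of these, 14 were tested, 2 fell (Amotl2 and F3) and 0 rose at an adjusted p under 0.05 in edgeR, and at an unadjusted p under 0.05 there were 2 higher and 5 lower. Over all genes tested, 11.8% were higher and 13.0% lower at that unadjusted level, and 1.28% and 2.29% after adjustment. The median log2 fold change was -0.14, and without control 1 the list had 4 calls. Amotl2, an angiomotin-like protein that itself binds YAP, had 19.5 and 13.0 CPM in the controls against 4.82 and 5.37 CPM with the mimic (log2 fold change -1.67 ± 0.22, adjusted p 0.0141 in edgeR). F3, the tissue factor of coagulation, had 23.3 and 13.7 CPM against 6.23 and 7.47 CPM (log2 fold change -1.44 ± 0.26, adjusted p 0.0336). In both genes, as in Cyr61, control 1 was the highest library and mimic replicate 3 the lowest.

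Of 20 genes chosen for the Hippo pathway itself, all 20 were tested. Of these, 2 fell and 0 rose at an adjusted p under 0.05 in edgeR, beside 2.29% and 1.28% of all genes. Unadjusted, 3 were lower and 2 higher, beside 13.0% and 11.8% of all genes. Wwtr1, which encodes TAZ, had 5.09 and 2.78 CPM in the controls against 0.287 and 0.506 CPM with the mimic (log2 fold change -3.29 ± 0.45, adjusted p 0.0150 in edgeR). Each mimic library was below each control by several fold, and the adjusted p was at most 0.0164 without any 1 library. Wwc1, which encodes the scaffold KIBRA, fell less, from 119 and 112 to 65.7 and 82.6 CPM (log2 fold change -0.64 ± 0.13, adjusted p 0.0444), and lost its call without mimic replicate 3 (adjusted p 0.167). The list had 5 calls without control 2 and 1 without mimic replicate 3. Its median was 0.11, and Yap1, given here for reference and not by the rule for named genes, had a log2 fold change of 0.12 ± 0.09.

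**Figure D4:**
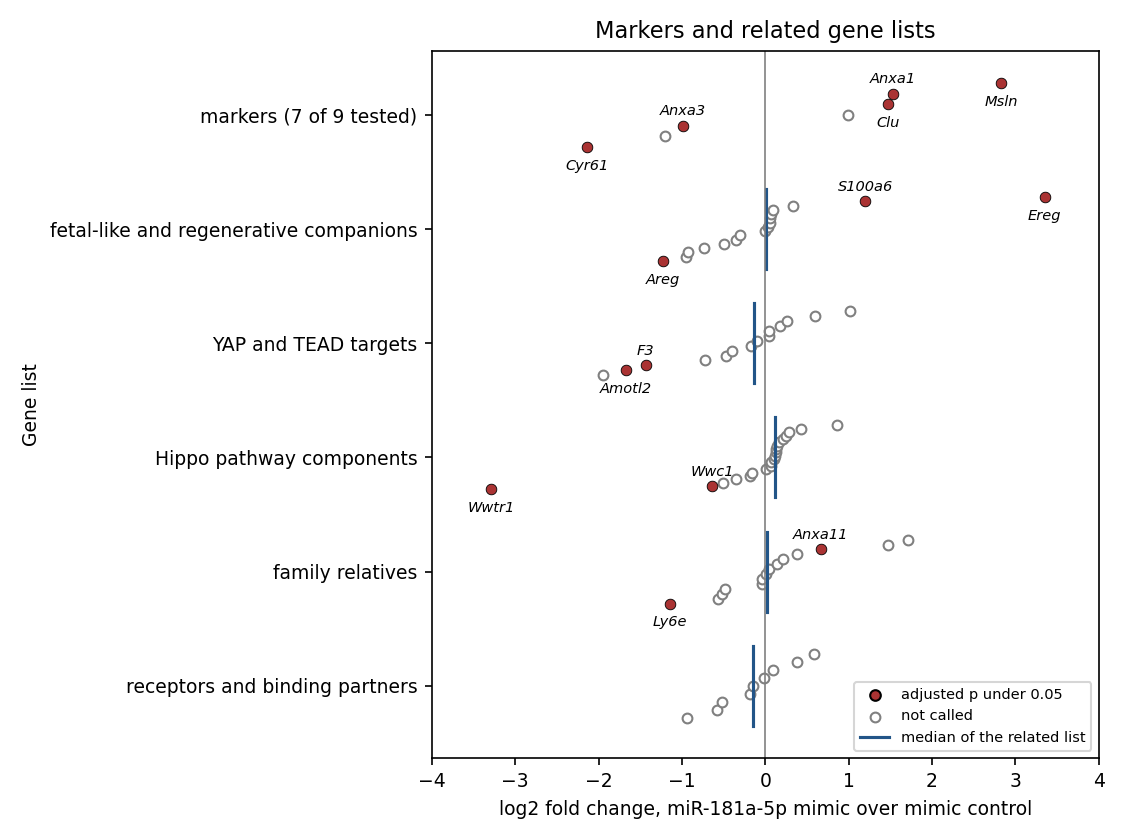
Log2 fold change, miR-181a-5p mimic over mimic control, of each tested gene of the markers and of the 5 related lists, with filled named points for an adjusted p under 0.05 in edgeR and blue bars for the list medians. Called genes lie on both sides of 0 among the markers, their companions and their family relatives, and below 0 among the YAP and TEAD targets and the Hippo components.

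Relatives of the markers by gene family differed widely in level, from 0 counts (Ibsp, Dmp1 and Mepe) to a mean of 661 TPM (Anxa4). Of 27 genes, 14 were tested, 1 rose (Anxa11) and 1 fell (Ly6e), beside 1.28% and 2.29% of all genes tested. Their median log2 fold change was 0.02. Anxa11 had 144 and 136 CPM in the controls against 230.3 and 212 CPM with the mimic (log2 fold change 0.66 ± 0.10, adjusted p 0.0179 in edgeR), and lost its call without mimic replicate 3 (adjusted p 0.0703), where Ly6e was the 1 gene of the list still called. Ly6e, a relative of Ly6a that is known as interferon-induced, had 249 and 181 CPM in the controls against 81.4 and 113 CPM with the mimic (log2 fold change -1.15 ± 0.19, adjusted p 0.0291). Ly6a and Ly6e thus lay on opposite sides of 0, although the value of Ly6a did not pass the test. Against 2.29% of all genes tested, 3 interferon response genes fell (Irf7, Ifit1 and Oasl2), of 10 listed and 7 tested. Without mimic replicate 3, 1 of them was called, since Irf7 (adjusted p 0.0749 in edgeR) and Ifit1 (0.0744) lost their calls. The list summed to 42.6 and 34.3 TPM in the controls against 25.4 and 27.5 TPM with the mimic. Its part in the values of Ly6a and Ly6e was not tested.

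Receptors and binding partners of the markers showed no call. Of 15 genes, 9 were tested, and 0 passed in edgeR's quasi-likelihood test, with 2 higher and 2 lower at an unadjusted p under 0.05 (all genes 11.8% and 13.0%). EdgeR's exact and likelihood-ratio tests and DESeq2 each called 2 of them. The partners highest in TPM were Itga6, the laminin-binding integrin chain, with 297 and 306 CPM in the controls against 407 and 380 CPM with the mimic (log2 fold change 0.38 ± 0.10, adjusted p 0.0740 in edgeR), and Itgb1, with a log2 fold change of -0.01 ± 0.11. Without control 2 the adjusted p of Itga6 was 0.0375 and 4 partners were called. The formyl peptide receptors Fpr1 and Fpr2, through which annexin A1 acts, and Muc16, the binding partner of mesothelin, were at 0 in all 4 libraries.

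Markers of the adult stem cell and of mature cells were read beside the fetal-like markers. Of 8 adult stem cell genes, all were tested and 1 fell, Lgr5, beside 2.29% of all genes tested. Lgr5 had 114.57 and 92.7 TPM in the controls against 26.9 and 54.1 TPM with the mimic (log2 fold change -1.38 ± 0.26, adjusted p 0.0369 in edgeR). At an unadjusted p under 0.05, 1 was lower (Lgr5) and 1 higher, Smoc2 (log2 fold change 0.48 ± 0.13, adjusted p 0.0794 in edgeR). Among all genes, 13.0% were lower and 11.8% higher at that level. Of the 8, 5 had a log2 fold change above 0 and 3 below. The list summed to 885 and 634 TPM in the controls against 761 and 944 TPM with the mimic, so its sum did not separate the groups. The 5 enterocyte markers summed to 2043 and 3383 TPM in the controls against 2104 and 1917 TPM with the mimic, with 0 called. Unadjusted, 1 was lower and 0 higher, while 4 had a log2 fold change below 0 and 1 above. The lower one was Fabp1 (log2 fold change -0.91 ± 0.28, adjusted p 0.109 in edgeR). The authors' own edgeR results list Fabp1 and Anpep as lower with an adjusted p under 0.05, but not Vil1, Apoa4, Cbr1 or Alpi. Anpep, outside the 5 markers read here, had a log2 fold change of -2.14 (adjusted p 0.00812 in edgeR). The part of either list in the values of the fetal-like markers was not tested.

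Promoter windows, 250 bases before to 50 after a transcription start, came from RefSeq (GRCm38.p6) for 4 of the 9 markers, Anxa1, Spp1, Il33 and Cyr61. The core letters bound by TEAD factors, GGAATG, were sought on both strands (CATTCC on the other). The windows of Cyr61, which fell, and Anxa1, which rose, are shown because each holds 1 match, in capitals.
Cyr61: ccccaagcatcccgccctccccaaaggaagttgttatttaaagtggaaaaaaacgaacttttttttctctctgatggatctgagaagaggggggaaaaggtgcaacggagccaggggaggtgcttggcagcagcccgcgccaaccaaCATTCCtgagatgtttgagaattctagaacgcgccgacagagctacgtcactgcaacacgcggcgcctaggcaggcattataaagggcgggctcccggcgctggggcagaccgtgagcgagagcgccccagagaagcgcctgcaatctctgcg
Anxa1: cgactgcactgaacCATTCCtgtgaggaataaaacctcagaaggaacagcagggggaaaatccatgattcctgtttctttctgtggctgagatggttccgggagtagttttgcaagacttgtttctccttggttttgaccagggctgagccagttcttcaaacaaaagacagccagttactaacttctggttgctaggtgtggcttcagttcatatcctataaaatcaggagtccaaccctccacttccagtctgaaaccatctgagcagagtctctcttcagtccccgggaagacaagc
The window of Cyr61 is chr3:145649936-145650235 and that of Anxa1 chr19:20390622-20390921, both read on the minus strand. Relative to the start, the match of Cyr61 begins at position -103 and that of Anxa1 at -236. Each of the 2 windows of Il33 held 1 match and neither window of Spp1 held any. Of 32851 such windows in RefSeq, 14.7% held the letters, so a match alone sets no gene apart, and the markers with a match did not share a direction.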

How the data were processed

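The authors trimmed single reads with Trimmomatic and quantified them with RSEM against GRCm38 transcripts. The methods describe ribosomal RNA depletion and the labels poly(A) enrichment, and whether counting used strand is not given in the sources used here. The deposited values are expected counts per gene without normalization and TPM. Of either deposited file, 3 further columns matched no sample and were not used. Symbols were matched for 55141 of 55487 identifiers. Where symbols differ, RefSeq synonyms were used, and Clul1 was not matched.

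The main test, on rounded expected counts, was that of edgeR 4.0.16 run under R 4.3.3 (genes kept by filterByExpr, TMM factors, estimateDisp, glmQLFit with legacy=FALSE, glmQLFTest), with Benjamini-Hochberg adjustment over 17155 genes and a threshold of 0.05. The SE is the log2 fold change divided by the root of F. The steps were tested on simulated counts. DESeq2 1.42.0 and limma 3.58.1 served as alternatives, and plots used matplotlib 3.10.9. With 2 libraries per group an exact two-sided permutation test of 1 gene cannot go below 0.333. What limits precision is the spread between libraries and, for genes with few counts, the depth.

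The markers and the related lists were chosen with earlier results of these data known. Named besides the markers are, from each list, the called genes (at most 6 by adjusted p) or, where fewer than 2 were called, also the 2 highest in TPM, and the 3 genes nearest in pattern to 2 markers. Yap1 and the marker genes given beside a result were chosen after their values were seen. The alternatives were other edgeR tests, scalings and filters, TPM fits, and leaving out each library.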

Additional observations from a re-analysis of the deposited data

How the results depend on the processing

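Every log2 fold change of the 7 tested markers kept its sign in all 109 values from the alternatives. In 22 of them a called marker was no longer called, and in 1 an uncalled marker (Ly6a) was. The 3 markers that rose and the 2 that fell were 1 and 1 without a filter on low counts, 1 and 0 in limma on log2(TPM + 1) and on log2(TPM + 0.1), and 0 and 0 in limma on unfiltered log2(TPM + 1). In the filtered TPM fits Msln was the 1 marker called, and these fits called 75 and 27 genes in all. With 1 library left out, 1 to 4 markers rose and 1 to 2 fell. The companion list, with 3 calls, had 7 in edgeR's exact and likelihood-ratio tests, 5 in DESeq2, 1 in both filtered TPM fits and 0 in the unfiltered one, and 2 to 7 with a library left out. The YAP and TEAD targets, with 2 calls, had 4 in the exact test, the likelihood-ratio test and DESeq2, 1 without a filter and 0 in the TPM fits, and 3 to 4 with a library left out (Gadd45a, chosen after its values were seen, had an adjusted p of 0.05004 just above the threshold in the reported test). The Hippo components, with 2 calls, had 3 in the exact test, the likelihood-ratio test and DESeq2. They had 1 without a filter, 1 with at least 10 counts in every library and 0 in the TPM fits. Wwtr1, with 9 counts in mimic replicate 3, did not enter the fit with at least 10 counts. The filter of the filtered TPM fits removed it as well. The family relatives, with 2 calls, had 4 in the exact and likelihood-ratio tests, 1 in the robust test, 1 without a filter and 0 in the TPM fits, and 1 to 3 with a library left out. The binding partners, with 0 calls, had 2 in the exact test, the likelihood-ratio test and DESeq2, and 0 to 4 with a library left out. Apart from genes that a filter removed, the cause of these moves was not tested. The number of genes called over the whole table was 612 as reported, 192 without a filter, 1778 in the exact test, 1864 in the likelihood-ratio test, 1298 in DESeq2, 323 without mimic replicate 3 and 2326 without control 2. When a library is left out the lone one is assumed to vary like the other group. The legacy form of the test was chosen after seeing the data. No paired analysis was possible because the groups share no replicate numbers. The filter on low counts kept Il33 and Spp1 out of the test.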

Other observations

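Some genes of the fetal-like and regenerative programme were barely counted in any library. Gja1, the gap junction protein connexin 43, had 3 and 4 counts in the mimic controls against 1 and 0 with the miR-181a-5p mimic, and Tnc, the matrix protein tenascin C, had 0 and 0 against 1 and 3. Basp1 had 1 or 2 counts in each library. None of these 3 passed the filter on low counts, so none was tested.

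Among differentiated cell types, 0 of 5 Paneth cell and 0 of 5 enteroendocrine cell markers were called by edgeR. Under an unadjusted p of 0.05, 2 Paneth cell markers were lower (Mmp7 and Ang4) and 1 enteroendocrine cell marker was higher. The adjusted p of Ang4 was 0.0512 in edgeR, just above the threshold. Of 5 tuft cell markers 4 were tested and 0 called (0 unadjusted). Of the 10 epithelial markers, all tested, 1 rose (Cdx1, log2 fold change 0.47 ± 0.10, adjusted p 0.0477 in edgeR) and 0 fell. Unadjusted, 3 of them were higher and 1 was lower. Among all genes tested, 11.8% were higher and 13.0% lower unadjusted, and after adjustment 1.28% rose and 2.29% fell. Of 5 goblet cell markers 1 was higher and 2 were lower at an unadjusted p under 0.05, and 1 fell after adjustment in edgeR, Spink4 (496 and 513 TPM in the controls, 307 and 395 TPM with the mimic, log2 fold change -0.59 ± 0.11, adjusted p 0.0353).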
